A study of Homo sapiens with 4 samples.

Results

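The genes described here store, import, export and release iron in human cells. They are the ferritin subunits FTH1 and FTL, the ferritin receptor for autophagy NCOA4, the transferrin receptor TFRC, the metal importers SLC11A1 and SLC11A2, the iron exporter SLC40A1 (ferroportin), the heme-degrading enzyme HMOX1 and the iron regulatory proteins IREB2 and ACO1. They were taken by gene symbol, and all 10 were found among the 56638 gene rows of the count table. The set was selected on gene symbols with the fold changes of this same comparison already known, so the members count as chosen by those fold changes. For that reason their differences between the groups are given as a description, with no p-value, and support no statement about iron genes in general.

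RNA was sequenced from MV4;11, an established acute myeloid leukaemia line with an activating FLT3 internal tandem duplication and a KMT2A rearrangement (KMT2A-AFF1). The treated group, 2 libraries, came from parental cells that received CU-T12-9 at 1 µg/mL for 24 h; this compound activates the paired Toll-like receptors TLR1 and TLR2. The vehicle group, 2 libraries, is labelled DMSO on the samples and PBS in the treatment protocol, and is called DMSO here. All cells were of this 1 line, grown in RPMI, so the comparison asks how a single leukaemic line responds and holds no other genotype. Libraries held 23087102 to 25867733 counted reads. All 8 myeloid markers checked passed the expression filter, with a summed level of 2919 to 3094 CPM under CU-T12-9 and 3595 to 3690 CPM under DMSO. Of these 8 markers, 3 fell, among them LYZ (lysozyme), at a mean of 1276 CPM under CU-T12-9 and 2002 CPM under DMSO. FLT3 averaged 374 CPM under CU-T12-9 and 464 CPM under DMSO, and CD33 125 CPM and 165 CPM. The other 5 rose: ITGAM (CD11b) 4.18-fold, CSF1R 1.60-fold, SPI1 1.54-fold, CEBPA 1.36-fold and AZU1 1.10-fold. The part of these differences in the results on iron genes was not tested. Of 11 erythroid markers, 8, among them HBB and ALAS2, had no read in any library, and the list summed to 0.641 to 0.751 CPM under CU-T12-9 and 0.877 to 0.921 CPM under DMSO. Of 5 markers of iron-recycling macrophages 4, CD163 among them, had no read, and the list summed to 0.0442 to 0.0855 CPM under CU-T12-9 and 0.0384 to 0.0418 CPM under DMSO.

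As background, cells take up iron bound to transferrin through TFRC, and SLC11A2 carries it out of the endosome into the cytosol. Iron that is not used is stored inside ferritin, a shell built of H chains (FTH1), which oxidise iron, and L chains (FTL), which help the iron core form. NCOA4 brings ferritin to the lysosome, where the iron is set free, SLC40A1 exports it, and HMOX1 opens the heme ring and releases the iron held there. When iron is scarce, ACO1 and IREB2 bind iron-responsive elements, short stem-loops in messenger RNA. Binding in the 5′ UTR blocks translation, as in ferritin mRNA, and binding in the 3′ UTR of TFRC protects that mRNA from decay. Macrophages are the main cells of iron recycling, and inflammatory signals are known to change their ferritin and ferroportin.

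The elements by which ACO1 and IREB2 recognise their targets are shown because they are the sequence feature that ties ferritin, ferroportin and transferrin receptor messages together. They were found in GENCODE 29 transcripts (GRCh38) as a C, 5 bases, the loop CAGTGN and 5 bases, with the 5 bases on either side of the loop able to pair (A with U, G with C, or G with U), and are printed 5′ to 3′ on the transcript strand with the loop in capitals.
FTH1: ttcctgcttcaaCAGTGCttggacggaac
FTL: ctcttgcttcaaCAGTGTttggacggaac
SLC40A1: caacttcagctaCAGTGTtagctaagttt
TFRC element 1: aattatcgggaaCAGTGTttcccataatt
TFRC element 2: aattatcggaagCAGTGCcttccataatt
The elements of FTH1, on chromosome 11, FTL, on chromosome 19, and SLC40A1, on chromosome 2, lay in the 5′ UTR. The stretches of FTH1 and FTL shared 26 of 29 bases. TFRC, on chromosome 3, held 4 such elements in its 3′ UTR, of which a pair is printed. The other 6 genes had no match to this pattern in their basic transcripts, which says only that these letters were not found. An element of another shape would be missed. EPAS1, described below as under iron regulatory protein control, had no match either. Across 19627 protein-coding genes, 0.158% had a match in a 5′ UTR and 0.652% in a 3′ UTR. Read counts measure the amount of mRNA and hold no information on translation.

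Of the 10 genes, 7 passed the threshold, an adjusted p under 0.05 in the edgeR quasi-likelihood test over all 14018 genes tested, and 65.2% of all genes tested did so. FTH1, FTL, NCOA4, SLC11A2, HMOX1 and IREB2 were higher in CU-T12-9 and SLC40A1 was lower, while TFRC, ACO1 and SLC11A1 did not pass. The background was 32.0% for higher and 33.2% for lower calls. All 10 genes passed the filter on low counts. Their median log2 fold change was 0.64, within a range of -2.43 to 4.51, against a median of 0.00 over all genes tested. For 8 of the 10 genes the groups did not overlap, which held for 82.3% of genes tested. With 2 libraries in each group, an exact permutation test of a single gene cannot give a two-sided p below 0.333.

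**Figure D1:**
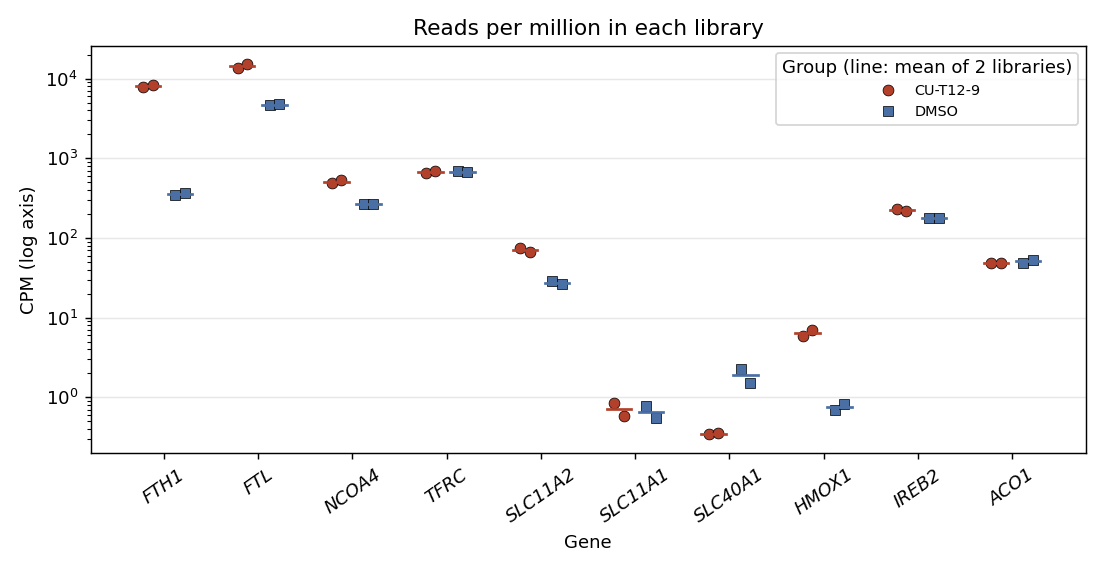
Scaled read counts (CPM, log axis) of each of the 10 genes in every library, with CU-T12-9 as circles and DMSO as squares and a line at the mean of 2 libraries. FTH1 stands at 7824 and 8375 CPM under CU-T12-9 and at 347 and 365 CPM under DMSO, while the points of TFRC and SLC11A1 overlap.

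Per kilobase of transcript, the ferritin subunits were the most abundant messages of the set in both groups, and the H chain showed the largest fold change of the 10 genes. FTH1 had 182951 and 189488 reads in the CU-T12-9 libraries, against 9044 and 8734 reads in the DMSO libraries. In CPM, the read count scaled to the library size adjusted by TMM (trimmed mean of M-values), this was 7824 and 8375 CPM under CU-T12-9 and 347 and 365 CPM under DMSO. The groups were far apart and the libraries of each lay close together. FTH1 averaged 8099 ± 389.7 CPM in CU-T12-9 and 356 ± 12.4 CPM in DMSO (SD, n = 2 each), a 22.8-fold difference (log2 fold change 4.51, SE 0.07). By number of reads FTH1 was the row with rank 3 under CU-T12-9 and rank 410 under DMSO, and by fold change it stood at rank 173 of the 14018 genes.

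FTL, the L chain, was already one of the most read rows without the agonist. It had 317228 and 342354 reads under CU-T12-9 and 121443 and 114302 reads under DMSO, or 13566 and 15131 CPM against 4662 and 4773 CPM. Its mean was 14349 ± 1107 CPM in CU-T12-9 and 4717 ± 78.5 CPM in DMSO (SD, n = 2 each), 3.04-fold higher in CU-T12-9 (log2 fold change 1.60, SE 0.07). FTL ranked 2 by reads under CU-T12-9 and 3 under DMSO, so its rank hardly differed while that of FTH1 did.

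FTH1 and FTL together took 2.16% (95% exact binomial interval 2.15 to 2.16) and 2.30% (2.30 to 2.31) of all reads in the CU-T12-9 libraries, and 0.504% (0.502 to 0.507) and 0.515% (0.512 to 0.518) in the DMSO libraries. The intervals reflect counting error alone, because reads that carry no molecular identifiers are not separate molecules. The balance between the chains, which needs no scaling between libraries, was 0.577 and 0.553 FTH1 reads per FTL read under CU-T12-9, against 0.0745 and 0.0764 under DMSO. FTH1 thus made up 36.6% and 35.6% of the ferritin reads of the CU-T12-9 libraries and 6.93% and 7.10% of those of the DMSO libraries. Per kilobase of transcript the ratio was 0.412 and 0.395 under CU-T12-9 and 0.0532 and 0.0546 under DMSO.

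**Figure D2:**
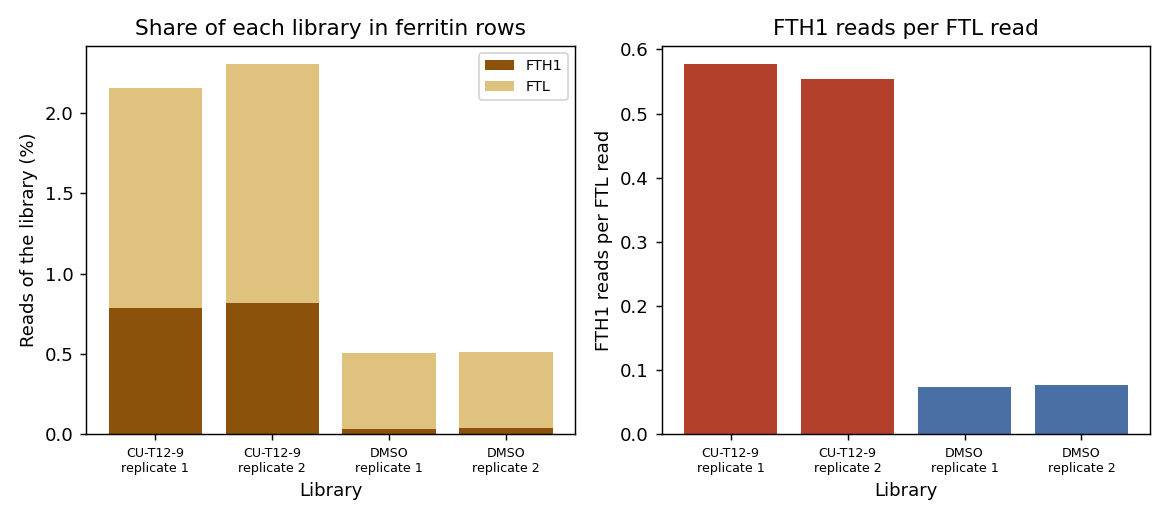
Left, percent of each library's reads in the FTH1 and FTL rows, stacked. Right, FTH1 reads per FTL read in the same libraries. The CU-T12-9 libraries hold 2.16% and 2.30% ferritin reads with 0.577 and 0.553 FTH1 reads per FTL read, and the DMSO libraries 0.504% and 0.515% with 0.0745 and 0.0764.

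Ferritin genes have many processed pseudogene copies, and the treatment of reads that map to several places is not stated. The table holds 25 FTH1 and 16 FTL pseudogene rows and the paralogs FTMT and FTHL17. Together these 43 rows held 40 reads over the 4 libraries. FTH1P3 had 6 and 7 reads under CU-T12-9 and 3 and 6 under DMSO, FTH1P15 had 4 and 4 under CU-T12-9 and none under DMSO, and FTH1P8 had 1 and 2 under CU-T12-9 and none under DMSO. Ferritin reads were therefore counted almost wholly in the parent rows. Reads that match a parent and a pseudogene equally well may have been dropped before counting, so the levels of FTH1 and FTL, and the ratio between them, are uncertain to that extent.

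NCOA4, the receptor that carries ferritin to the lysosome, had 489 and 531 CPM under CU-T12-9, against 269 and 269 CPM under DMSO. The groups did not overlap. It averaged 509.7 ± 29.8 CPM in CU-T12-9 and 269 ± 0.497 CPM in DMSO (SD, n = 2 each), a 1.89-fold difference (log2 fold change 0.92, SE 0.05).

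The genes of iron uptake differed from one another. TFRC, the transferrin receptor, had 652 and 699 CPM under CU-T12-9 and 691 and 677 CPM under DMSO. Both DMSO libraries lay between the CU-T12-9 libraries, and the log2 fold change was -0.02 (SE 0.05), with a sign that turned under upper-quartile scaling (0.00897) and without the first CU-T12-9 library (0.0626). SLC11A2 (DMT1), which moves ferrous iron out of the endosome, had 75.3 and 66.8 CPM under CU-T12-9, against 28.6 and 26.6 CPM under DMSO. Its mean was 71.0 ± 6.03 CPM in CU-T12-9 and 27.6 ± 1.42 CPM in DMSO (SD, n = 2 each), 2.58-fold higher in CU-T12-9 (log2 fold change 1.37, SE 0.08). SLC11A1 (NRAMP1), the related transporter of phagosomes in macrophages and neutrophils, was read 20 and 13 times under CU-T12-9 and 20 and 13 times under DMSO. Its log2 fold change was 0.12 with an SE of 0.37. At this depth a difference well above that error could have been missed. BLVRA, a heme breakdown gene named only for its similar SE of 0.40, did not pass at a log2 fold change of -0.997.

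SLC40A1, the exporter ferroportin, was the 1 gene of the set that was lower. It had 8 and 8 reads under CU-T12-9 and 59 and 36 reads under DMSO, so that the groups did not overlap. The DMSO libraries lay further apart than the CU-T12-9 libraries. SLC40A1 averaged 0.348 ± 0.00811 CPM in CU-T12-9 and 1.88 ± 0.539 CPM in DMSO (SD, n = 2 each), with a log2 fold change of -2.43 (SE 0.37). It stood at rank 142 from the largest fall among all genes tested. With so few reads the size of the difference is less well known than that of the ferritins.

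HMOX1, the inducible heme oxygenase, was little read without the agonist. It had 136 and 159 reads under CU-T12-9 and 18 and 20 reads under DMSO, or 5.82 and 7.03 CPM against 0.691 and 0.835 CPM. All CU-T12-9 values lay well above the DMSO values. HMOX1 averaged 6.42 ± 0.857 CPM in CU-T12-9 and 0.763 ± 0.102 CPM in DMSO (SD, n = 2 each), with a log2 fold change of 3.07 (SE 0.22).

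The iron regulatory proteins showed small differences or none that passed. IREB2 (IRP2), which is degraded when iron is plentiful, had 235 and 221 CPM under CU-T12-9 and 177 and 178 CPM under DMSO, a 1.29-fold difference (log2 fold change 0.36, SE 0.05). It passed the threshold for any change and did not pass when tested against a 1.5-fold change, which 24.6% of genes tested did. ACO1 (IRP1), which works as cytosolic aconitase when it holds an iron-sulfur cluster, had 49.1 and 48.9 CPM under CU-T12-9 and 49.2 and 53.4 CPM under DMSO (log2 fold change -0.06, SE 0.06). Its groups did not overlap, but the gap between them was smaller than the spread of the DMSO libraries.

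**Figure D3:**
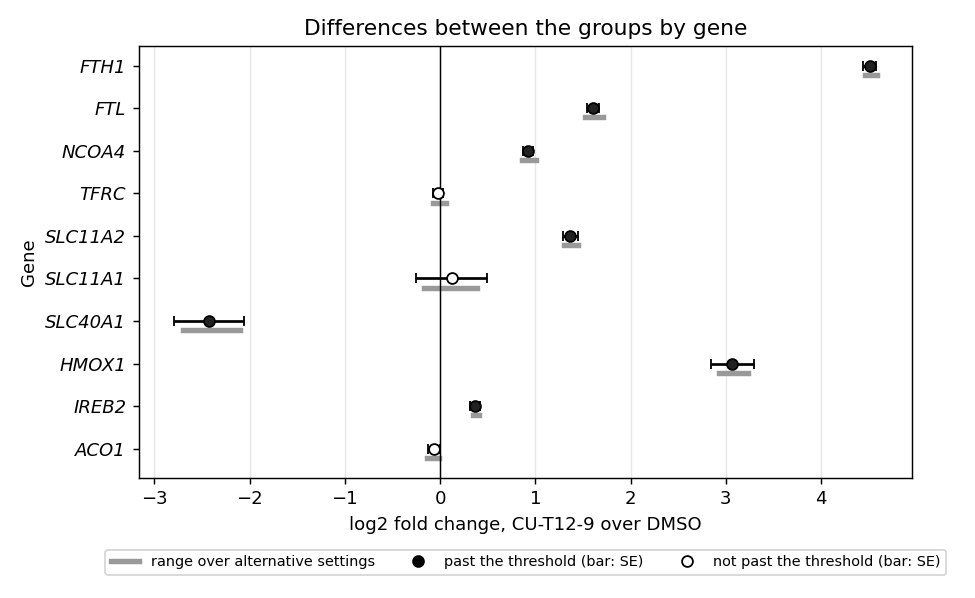
Log2 fold change of CU-T12-9 over DMSO for each gene with its SE, filled where the gene passed the threshold, and a grey bar for the range over the alternative settings. FTH1 lies at 4.51, HMOX1 at 3.07 and SLC40A1 at -2.43, with SLC11A1 and SLC40A1 carrying the widest errors.

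Levels were compared between genes per kilobase of the GENCODE 29 transcript of each gene, as CPM divided by length (RPKM), which rests on 1 transcript a gene and is approximate. Under CU-T12-9 the order of mean RPKM was FTL (16340), FTH1 (6590), NCOA4 (221), TFRC (132), IREB2 (35.9), SLC11A2 (17.1), ACO1 (6.56), HMOX1 (3.52), SLC11A1 (0.186) and SLC40A1 (0.101). No neighbours in that order had overlapping libraries. Under DMSO the order was FTL (5373), FTH1 (289.6), TFRC (134), NCOA4 (117), IREB2 (27.9), ACO1 (6.87), SLC11A2 (6.62), SLC40A1 (0.547), HMOX1 (0.419) and SLC11A1 (0.170). There the libraries of ACO1 and SLC11A2 overlapped, as did those of SLC40A1 and HMOX1. TFRC thus stood below NCOA4 under CU-T12-9 and above it under DMSO.

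Promoter windows of 300 bases, 13 in all, were available in the RefSeq table (GRCh38.p14) for 8 of the 10 genes, without FTH1 and HMOX1. The antioxidant response core TGACNNNGC, searched on both strands, was found for 1 of these genes, NCOA4, and in 13.3% of all 35116 windows. An NF-kB site was found for SLC11A2 and IREB2, and in 11.3% of all windows. These are matches of letters and not binding sites. A site outside these short windows would be missed, so a gene without a match may still have one. A gene can have several windows, so counts of genes and shares of windows are not directly comparable.

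Beyond the 10 genes, 97 other genes of iron and heme handling were listed, of which 77 passed the filter. Of these, 21 rose and 30 fell, or 66.2%, near the 65.2% of all genes tested. Their median log2 fold change was -0.11. When tested against a 1.5-fold change, 17 of the 77 passed, a share no higher than the 24.6% of all genes tested. The lists were chosen with earlier results of this comparison known, so their calls and values are a description and support no statement about iron or heme genes as a group. In bulk RNA, fewer cells of a kind and less RNA per cell cannot be told apart.

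Among genes of iron uptake, mobilization and export, 4 of 14 tested members rose and 8 fell, of 27 listed, with a median log2 fold change of -0.38. Calls made up 85.7% of those tested, against 65.2% of all genes tested. Without the first or without the second DMSO library, 1 member rose. STEAP3, the ferrireductase of the transferrin endosome, had 7.10 and 7.87 CPM under CU-T12-9 and 31.1 and 26.9 CPM under DMSO (log2 fold change -1.95, SE 0.11). The metal importer SLC39A14 (ZIP14) had 80.8 and 84.9 CPM under CU-T12-9 and 187 and 178 CPM under DMSO (log2 fold change -1.14, SE 0.06), and the related SLC39A8 had 32.8 and 38.6 CPM against 86.6 and 78.4 CPM (-1.21, SE 0.09). TFR2, a second transferrin receptor that senses iron, averaged 4.50 ± 0.259 CPM in CU-T12-9 and 10.3 ± 0.405 CPM in DMSO (SD, n = 2 each; log2 fold change -1.20, SE 0.13). HEPH and CYBRD1 lie outside the rule for named genes and were chosen after their values were seen. HEPH, a ferroxidase that works with ferroportin, rose, with 1.33 and 1.46 CPM under CU-T12-9 and 0.537 and 0.501 CPM under DMSO (log2 fold change 1.41, SE 0.30). The ferric reductase gene CYBRD1 rose by 0.20 on the log2 scale (SE 0.07), a call that was lost with DESeq2 and without the first (log2 fold change 0.16) or the second DMSO library (0.23). Hepcidin (HAMP), the hormone that removes ferroportin from the membrane, had 0 and 1 reads under CU-T12-9 and none under DMSO, and was not tested.

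Of 13 tested heme synthesis genes (14 listed), 3 rose, 3 fell and 7 did not pass, the median log2 fold change being 0.08. The share called was 46.2%, below the 65.2% of all genes tested. ALAS1, the first and rate-limiting enzyme of heme synthesis outside erythroid cells, had 231 and 229 CPM under CU-T12-9, against 59.5 and 56.0 CPM under DMSO. It rose 3.98-fold (log2 fold change 1.99, SE 0.05). The mitochondrial transporter ABCB10 fell, with 40.6 and 39.1 CPM under CU-T12-9 and 105 and 98.5 CPM under DMSO (log2 fold change -1.36, SE 0.06). The porphyrin transport gene TMEM14C rose by 0.28 on the log2 scale (SE 0.07). Without the second CU-T12-9 library, 5 members rose. The TMEM14C call was lost without the second DMSO library (log2 fold change 0.23).

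Of 10 tested genes of heme breakdown and traffic (14 listed), 3 rose, 3 fell and 4 did not pass, with a median log2 fold change of -0.22. The share called was 60%, near the 65.2% of all genes tested. SLC48A1 (HRG1), which moves heme out of the phagolysosome, had 43.8 and 45.4 CPM under CU-T12-9 and 14.8 and 14.7 CPM under DMSO (log2 fold change 1.60, SE 0.07). FLVCR2, a transporter of the same family as the heme exporter FLVCR1, had 55.1 and 49.4 CPM under CU-T12-9 and 18.9 and 18.4 CPM under DMSO (log2 fold change 1.49, SE 0.08). FLVCR1 itself, outside the rule for named genes, was lower in CU-T12-9 (log2 fold change -0.40, SE 0.09). HMOX2, the constitutive heme oxygenase, fell, with 39.1 and 44.7 CPM under CU-T12-9 and 63.0 and 64.9 CPM under DMSO (log2 fold change -0.61, SE 0.07). The heme-binding membrane protein gene PGRMC1 fell by 0.80 on the log2 scale (SE 0.10). Among heme oxygenase reads, the inducible and the constitutive gene thus moved in opposite directions. HMOX2 stayed the more read gene in both groups. It averaged 41.9 CPM against 6.42 CPM for HMOX1 under CU-T12-9, and 64.0 CPM against 0.763 CPM under DMSO.

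Iron-sulfur cluster assembly, the main use of iron in mitochondria beside heme, held 4 rises and 13 falls among 25 tested members (26 listed), with a median log2 fold change of -0.25. Over all genes tested, 32.0% rose and 33.2% fell. Against a 1.5-fold change, 3 of the 25 passed, all of them falls, where 24.6% of all genes tested did. BOLA3, a late-acting assembly factor, had 18.5 and 16.5 CPM under CU-T12-9 and 39.2 and 36.4 CPM under DMSO (log2 fold change -1.11, SE 0.08). The cytosolic scaffold gene NUBP2 fell by 0.91 on the log2 scale (SE 0.06). HSPA9, the mitochondrial chaperone that hands clusters on, had 418 and 409 CPM under CU-T12-9 and 649.7 and 628 CPM under DMSO (log2 fold change -0.63, SE 0.05). With the first or the second DMSO library left out, 2 members rose.

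Of 15 tested regulators (16 listed), 7 rose and 3 fell, and the median log2 fold change was 0.13. The share called was 66.7%, near the 65.2% of all genes tested. EPAS1 (HIF-2α), a hypoxia factor whose mRNA is itself under iron regulatory protein control, had 27.8 and 28.1 CPM under CU-T12-9, against 4.07 and 5.01 CPM under DMSO (log2 fold change 2.62, SE 0.11). NFE2L2 (NRF2), which drives HMOX1 and both ferritin genes in oxidative stress, had 539.9 and 562 CPM under CU-T12-9 and 150.2 and 161 CPM under DMSO (log2 fold change 1.82, SE 0.06). Its small MAF partner MAFG rose by 0.71 on the log2 scale (SE 0.05). Neither the protein nor the activity of NRF2 was measured. MAFF rose by 0.72 (SE 0.24), a call that was lost with DESeq2, without the first CU-T12-9 library (log2 fold change 0.56) and without the first DMSO library (0.48). MAFK, another small MAF, BACH1, the heme-sensing repressor of HMOX1, and FBXL5, the iron-sensing ligase subunit that removes IREB2, lie outside the rule for named genes and were chosen after their values were seen. MAFK fell by 0.42 on the log2 scale (SE 0.10), a call that was lost without the second DMSO library (log2 fold change -0.30). BACH1 had 42.9 and 49.0 CPM under CU-T12-9 and 34.8 and 33.4 CPM under DMSO (log2 fold change 0.43). FBXL5 had 48.4 and 54.3 CPM under CU-T12-9 and 54.4 and 50.6 CPM under DMSO (log2 fold change -0.03). With the second DMSO library left out, 1 regulator fell.

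**Figure D4:**
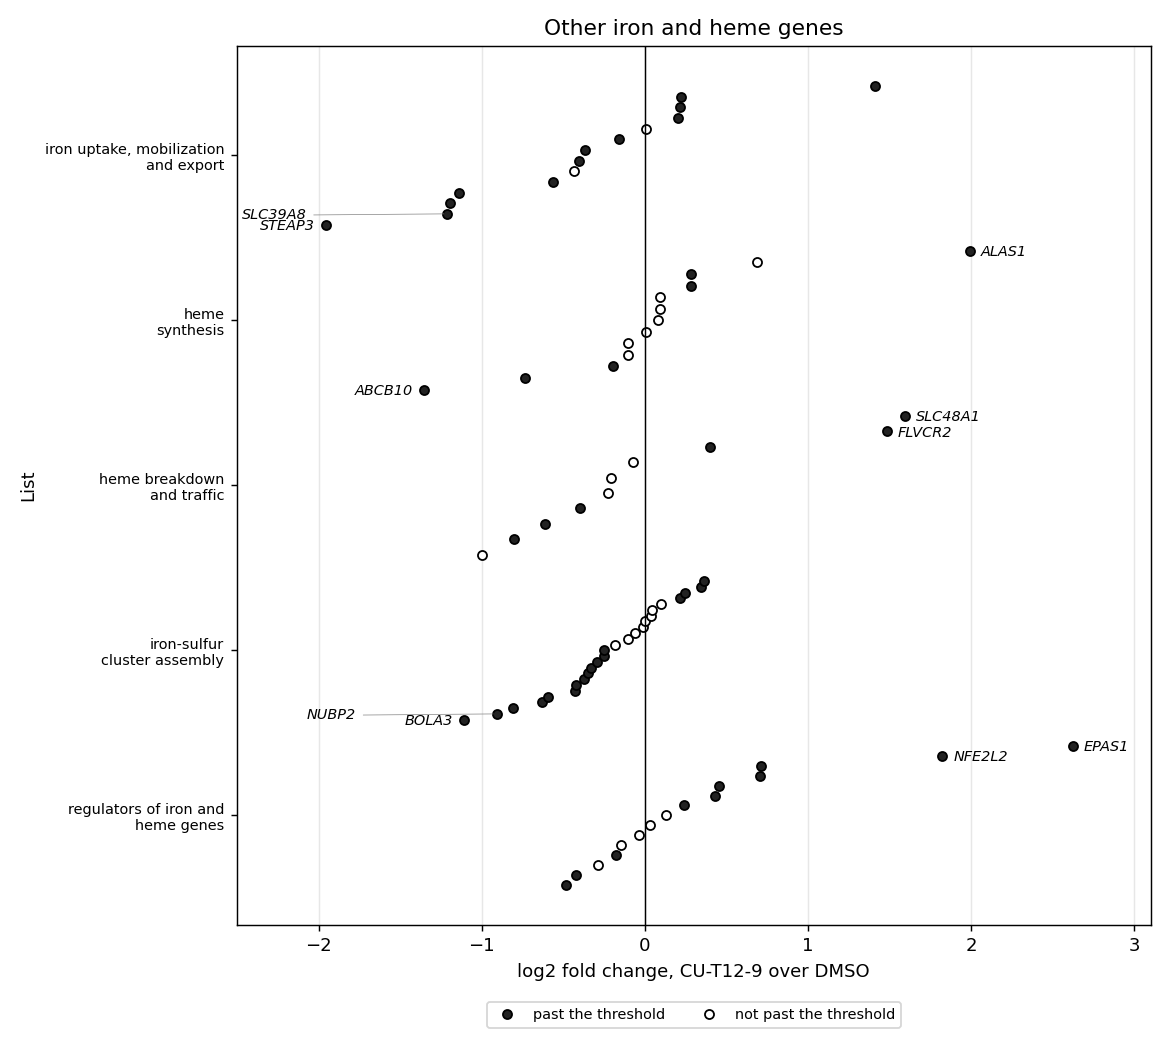
Log2 fold change of CU-T12-9 over DMSO for each tested gene of 5 lists of other iron and heme genes, filled where the gene passed the threshold, with symbols for the 2 named genes of each list that differed most. EPAS1 at 2.62 and ALAS1 at 1.99 lie furthest to the right and STEAP3 at -1.95 furthest to the left, and most iron-sulfur genes lie between -1 and 0.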

How the data were processed

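RNA of 2 CU-T12-9 and 2 DMSO libraries was measured by sequencing. The authors deposited raw counts of reads for each gene symbol in a single table. Per the submitters' processing notes, FastQC 0.11.7, TopHat2 and featureCounts 1.5.2 were used with GRCh37. Annotation, strand setting and treatment of multi-mapping reads: not given in the sources used here. Hence levels of genes with near-identical or overlapping copies are uncertain. No column was left out.

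Counts were analysed in R 4.3.3 with edgeR 4.0.16 (quasi-likelihood test, a group term alone, filterByExpr with 14018 genes kept, TMM) and Benjamini-Hochberg adjustment over all genes kept, at a threshold of 0.05. Each SE is the absolute log2 fold change over the root of its F statistic. A single read equals 0.0384 to 0.0442 CPM. The log2 CPM of replicate libraries correlated at 0.994 (CU-T12-9) and 0.996 (DMSO) across genes, and both pairs differed by more than sampling noise (chi-square per degree of freedom 6.99 and 2.42). The labels do not say that replicates came from separate cultures, so the spread behind the p-values is that between these libraries and may be technical. In simulated data for this comparison, with 14018 genes, the test found 26% of genes with a simulated 1.2-fold change. It found 74% of those at a fold of 1.5, 92% at a fold of 2 and 100% at a fold of 4, and 5 of 151 calls were false. Every gene was simulated with the same biological coefficient of variation, 5.00%. Only 50 genes were changed at each fold, a far smaller share than passed in the real data. These rates need not hold for genes with few reads or a wider spread.

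The 10 genes and the 5 lists of other genes were chosen with earlier results of these data known. Named in each list are the 4 genes with the largest absolute log2 fold change among those past the threshold with a mean of at least 1 CPM, and of ferritin pseudogenes the 3 with most reads; 2 of the genes so chosen are not reported here. Alternatives were other scalings and filters, DESeq2 1.42.0, limma-voom (limma 3.58.1), a test against a 1.5-fold change, leaving out each library, a replicate block and adding pseudogene reads to the ferritins. Sequences came from GENCODE 29, matched by symbol for all 10 genes. The files give no coordinates and the reference is of another build, so none are printed.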

Additional observations from a re-analysis of the deposited data

How the results depend on the processing

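The 10 genes kept 7 calls, 6 higher and 1 lower, under 13 of the 14 alternatives. Tested against a 1.5-fold change 6 passed, without IREB2. SLC11A1 was not tested under the stricter filter, 1 CPM in 2 libraries, so it was followed in 13 alternatives. Against a 1.5-fold change 3449 of all genes tested passed (1761 higher, 1688 lower), and 17 of the other iron and heme genes: 1 higher and 4 lower for iron uptake, 1 higher and 2 lower for heme synthesis, 2 higher and 1 lower for heme breakdown, 0 higher and 3 lower for iron-sulfur assembly, and 3 higher and 0 lower for regulators. By construction this test asks for larger changes. With DESeq2 2 genes of iron uptake and 2 of iron-sulfur assembly rose; the cause was not tested. TFRC, which did not pass, turned to 0.00897 with upper-quartile scaling and ranged from -0.0713 to 0.0626 with 1 library left out, and 2 others that did not pass likewise: SLC11A1 from -0.17 to 0.39 and FBXL5 from -0.119 to 0.0783. Leaving out 1 library each gave 1 to 5 higher genes for iron uptake, 2 to 5 for heme synthesis and 2 to 4 for iron-sulfur assembly, 1 to 4 lower regulators, 39 to 56 changed other genes, and 7615 to 9908 changed genes overall (3679 to 4969 higher, 3936 to 4939 lower). FTH1 ranged from 4.46 to 4.59 and SLC40A1 from -2.69 to -2.10 over all alternatives.

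Same-numbered libraries did not deviate together (correlation 0.008). With 2 libraries in each group this cannot show whether they were paired, and the labels do not say. A replicate block gave 9143 changed genes, 7 of the 10 and 51 other iron and heme genes. Adding pseudogene reads to the ferritin rows left FTH1 at 4.51. At 8 to 59 reads a library, depth limits SLC40A1 and SLC11A1 most.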
